A study of Mus musculus with 12 samples.

Results

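Mitotic B lymphoma cells that carried the S38D form of the ribosomal protein RPL12 were compared with mitotic cells that carried wild-type (WT) RPL12, by ribosome profiling. The comparison used every library labelled as mitotic with these genotypes, 2 of S38D and 2 of WT, which are 4 of the 12 libraries of the study. All 12 came from 19PP, a mouse B cell lymphoma line grown in DMEM. Per the labels' protocols, this line arose in a Rag2-/-γC-/- mouse that had received Cγ1-Cre; Myc/P110*flSTOP bone marrow, and the cells cultured were 19DN, a subline sorted after a Flp plasmid had removed the GFP and hCD2 reporters. Every group therefore shares this origin, in which Rag2-/-γC-/- names the recipient mouse and not the marrow it received. Cells labelled mitotic had 100 ng/mL nocodazole for 8 hr and then 10 min in fresh medium. The same treatment text stands on the libraries labelled asynchronous, whose titles do not name nocodazole. Cycloheximide was present at harvest, at 100 µg/ml. The third genotype, S38A, was sampled in the same way and serves here for side-by-side values. Several plates were grown per condition. The labels do not say how many clones stand for a genotype or whether the 2 libraries of a group were separate cultures, so a difference is one between the cells labelled with these genotypes, and p-values measure a spread that may be technical.

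RPL12, also called uL11, sits at the base of the stalk of the large ribosomal subunit, where the translational GTPases that drive elongation bind. Serine 38 lies in a sequence that proline-directed kinases such as CDK1 recognise, and its phosphorylation is known to be raised in mitosis. Aspartate at this place (S38D) carries a negative charge, as a phosphorylated serine does, while alanine (S38A) cannot be phosphorylated. Nocodazole stops microtubules from forming and holds cells in mitosis. A footprint is the stretch of mRNA that a ribosome shields from nuclease, so a footprint level reflects the amount of an mRNA together with its translation, and the values below are not translation efficiencies.

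Reads assigned to coding sequence numbered 274071 and 298198 in the S38D libraries and 300205 and 393141 in the WT libraries. A floor of 3 reads corresponded to 7.63 to 10.9 CPM, that is, reads scaled to a common total per library as given in the processing account. Reads outside counted features were 27.9 and 28.3% of uniquely aligned reads in the S38D libraries and 34.6 and 29.0% in the WT libraries. The 100 most abundant genes took 21.8% of coding reads in both S38D libraries and 20.2 and 20.7% in the WT libraries, and the part of this gap in the results was not tested. Both pairs of replicates were alike, with log2 CPM correlating at 0.952 in S38D and 0.955 in WT across 4259 well-covered genes, which are not independent replicates. The files give Ensembl gene IDs and the tables used here pair none of the 22520 IDs with a symbol. RPL12 and the markers of the cell type were therefore not located, and genes are given by ID with no statement on their function. The S38D label could not be checked from these counts, since they carry no sequence of the substitution.

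Few genes passed the main test between mitotic S38D and WT cells, which does not show that the others were equal. Of 6692 genes tested, 122 passed the threshold of adjusted p under 0.05 (edgeR quasi-likelihood test), which is 1.82% of those tested. These were 47 genes with more footprints in S38D (0.702%) and 75 with fewer (1.12%). Among the called genes, 44 of the 75 lower and 11 of the 47 higher differed at least 2-fold, as did 370 of all 6692 tested. The lower genes were scarcer, with a median of 160 CPM against 409 in the higher genes. Scarcer genes needed larger differences to be called, so the sizes of the 2 sets are not directly comparable. The median log2 difference was -1.14 among the lower genes, ranging from -5.41 to -0.48, and 0.82 among the higher genes, ranging from 0.40 to 3.46. Over all genes tested the median was -0.01. Libraries were scaled to a common total, so these are relative changes. The split between directions moved with the scaling, to 35 higher and 90 lower with library totals and to 68 higher and 64 lower with DESeq2 size factors.

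**Figure D1:**
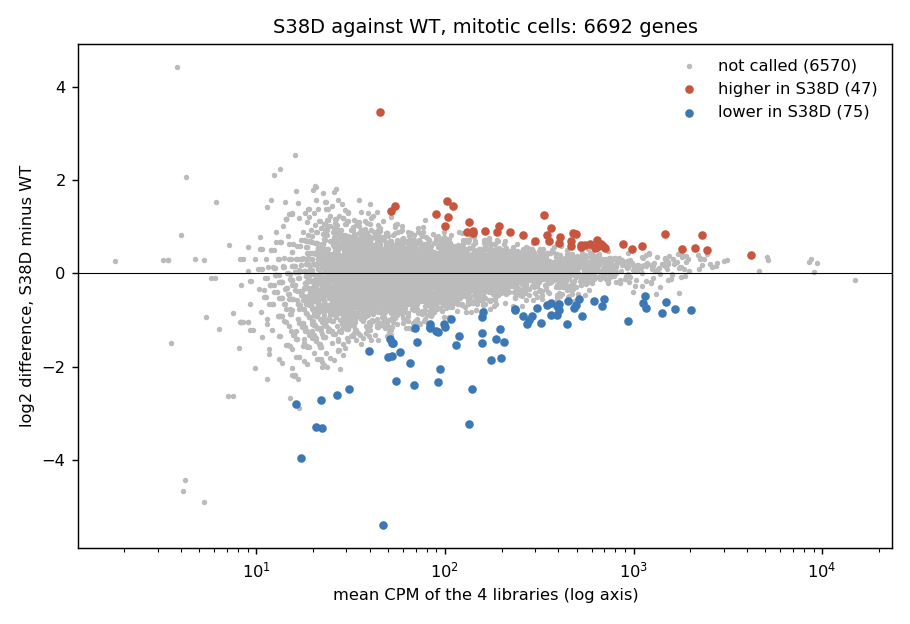
Log2 difference of footprint level, S38D minus WT in mitotic cells (vertical axis), against the mean CPM of the 4 libraries on a log axis, 1 point per gene tested. The 47 genes higher in S38D (red) lie mostly among abundant genes, while the 75 lower genes (blue) reach down to a log2 difference of -5.41.

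All 122 genes had libraries that did not overlap between the genotypes, as had 43.3% of all genes tested. The median absolute log2 difference between the replicates of a group was 0.15 in WT and 0.16 in S38D for these genes, with 0.92 between genotypes, a gap that the test itself selects for. Over all genes tested the same values were 0.25, 0.28 and 0.26. Replicate values compare single libraries, while genotype values are fitted between groups of 2 libraries, so the sizes are not directly comparable. Each library carried weight in the count. It was 60 without WT mitotic replicate 1, 52 without WT mitotic replicate 2, 50 without S38D mitotic replicate 1 and 39 without S38D mitotic replicate 2. DESeq2 called 58 genes, and its filter on low means left 48 of the 122 with no adjusted p. Without that filter it called 48 genes, all among the 122. A fit of these 4 libraries alone called 228.

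What could be called depended on abundance. Of the 687 genes at a mean of at least 300 CPM, 55 were called (8.01%), 29 higher and 26 lower, and the smallest called log2 difference was 0.40 in size. Between 100 and 300 CPM 35 of 1732 genes were called, and between 30 and 100 CPM 26 of 3111, 22 of them lower. In the range from 10 to 30 CPM, 6 of 1120 were called, all lower, and none differed by less than 2.62 on the log2 scale. Smaller changes of scarce mRNAs were not detectable at this depth.

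Among the called genes, ENSMUSG00000045826.8 showed the largest loss. It had 93.9 and 90.7 CPM in the WT mitotic libraries and 0 and 3.51 CPM in the S38D mitotic libraries. These are 63 reads in WT and 1 read in S38D, a ratio of 52.0 with an exact binomial 95% interval of 8.999 to 2086 that covers counting error only. The fitted log2 difference was -5.41 ± 0.71 (SE, adjusted p = 2.29e-07, edgeR). It was -4.58 without S38D mitotic replicate 1 and -8.03 without S38D mitotic replicate 2, past the threshold in both. DESeq2 gave it an adjusted p of 0.040 only without its filter. The gene was as scarce in S38A, with 2.33 and 0 CPM in mitotic libraries. Asynchronous libraries had the same order, with 86.0 and 76.3 CPM in WT, 4.10 and 2.22 CPM in S38D and 0 CPM in both of S38A. Thus every WT library lay far above every library of either mutant. The log2 change of its difference between states was -0.89 ± 1.47 (SE, adjusted p = 0.96, edgeR).

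ENSMUSG00000071658.4 came second among the losses, at far fewer reads. WT mitotic libraries had 26.8 and 38.9 CPM (23 reads) and S38D mitotic libraries 0 and 3.51 CPM (1 read), a ratio of 19.0 with an interval of 3.08 to 782. The groups did not overlap (log2 difference -3.96 ± 1.01, SE, adjusted p = 0.018, edgeR). S38A mitotic libraries disagreed with each other, at 21.0 and 2.65 CPM. In asynchronous cells the levels were 15.6 and 43.1 CPM in WT and 8.21 and 6.65 CPM in S38D, a difference that did not pass (adjusted p = 0.098, edgeR). The mitotic call was lost without WT mitotic replicate 2 (adjusted p = 0.23), S38D mitotic replicate 1 (adjusted p = 0.28) or S38D mitotic replicate 2 (adjusted p = 0.12, edgeR), where the log2 difference was -3.58, -3.13 and -6.58. It did not pass in DESeq2 without its filter either (log2 difference -4.14, adjusted p = 0.51), and it was too scarce to be tested in the fits of the 4 compared or the 6 mitotic libraries.

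Such near losses ran in a single direction. Among all 22520 IDs, 8 had at least 20 reads over both WT mitotic libraries and at most 3 over both S38D mitotic libraries, while none had the reverse. Their WT counts ranged from 20 to 63 reads. Of these 8 genes, 5 were called, 1 did not pass and 2 were too scarce over the 12 libraries to be tested. In S38A mitotic libraries 3 of the 8 had at most 3 reads as well, and in S38D asynchronous libraries 4 had. Of these last 4, 1 had 0 reads and another 4 reads in the WT asynchronous libraries, and 3 of the 8 genes reached 20 reads there. Both WT libraries held more coding reads than both S38D libraries, so the limits were somewhat easier to meet in this direction.

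The largest gain among the called genes was that of ENSMUSG00000096210.1. It rose from 3.35 and 10.4 CPM in WT to 68.7 and 98.2 CPM in S38D mitotic libraries (5 and 46 reads), a log2 difference of 3.46 ± 0.56 (SE, adjusted p = 1.53e-05, edgeR). That log2 difference ranged from 3.01 without WT mitotic replicate 1 to 4.56 without WT mitotic replicate 2. DESeq2 without its filter gave an adjusted p of 0.013. S38A mitotic libraries had 9.34 and 26.5 CPM, below S38D (log2 difference 2.25 ± 0.45, SE, adjusted p = 0.000183, edgeR). The gain was present in asynchronous cells too, at 36.9 and 33.2 CPM in S38D against 3.91 and 3.32 CPM in WT (adjusted p = 0.0087, edgeR). S38D libraries of both states were thus above all WT and S38A libraries of this gene.

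The next gain was much smaller. For ENSMUSG00000020812.17, WT mitotic libraries had 33.5 and 67.4 CPM, and both S38D mitotic libraries were above them at 141 and 168 CPM, a log2 difference of 1.56 ± 0.29 (SE, adjusted p = 0.000255, edgeR). That log2 difference ranged from 1.24 without WT mitotic replicate 1 to 2.26 without WT mitotic replicate 2. DESeq2 without its filter gave an adjusted p of 0.049. S38A mitotic libraries lay between, at 109.7 and 79.5 CPM. Asynchronous libraries had 39.0 and 39.9 CPM in S38D against 19.5 and 16.6 CPM for WT, a difference in the same direction that did not pass (adjusted p = 0.23, edgeR). Apart from ENSMUSG00000096210.1, no gene called higher therefore exceeded a log2 difference of 1.56.

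**Figure D2:**
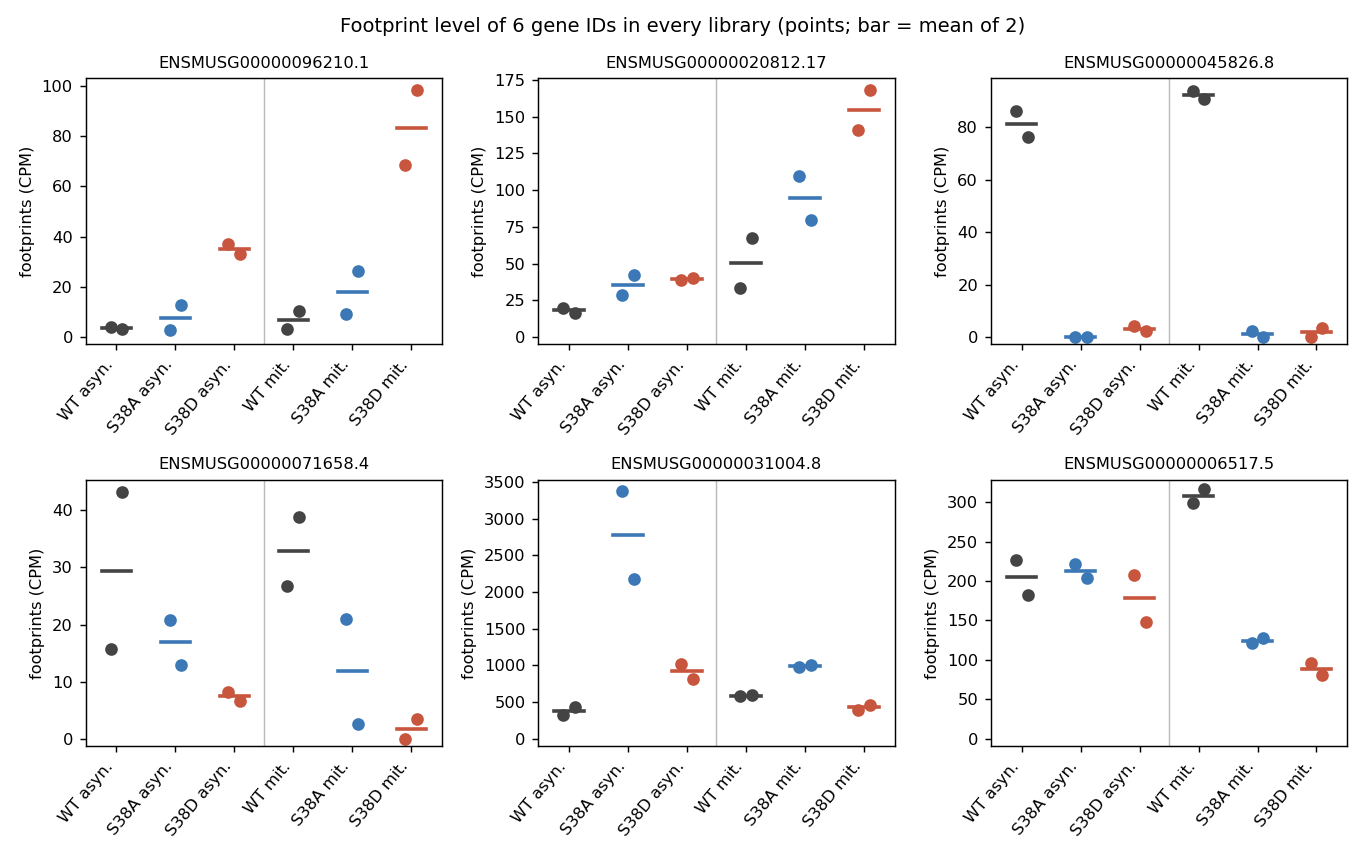
Footprint level in CPM (vertical axes, linear) of 6 gene IDs in each of the 12 libraries, by group (horizontal axes); points are libraries and bars are means of 2. ENSMUSG00000045826.8 is at 0 to 4.10 CPM in every mutant library, and ENSMUSG00000096210.1 is highest in S38D in both states.

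The genotype difference was next set beside the one in asynchronous cells, which rests on other libraries, to see whether it belonged to mitosis. There, 223 genes passed (3.33%), 99 higher (1.48%) and 124 lower (1.85%), a split that became 76 and 160 with library totals. With only the compared libraries in the fit, 70 genes passed in asynchronous and 228 in mitotic cells, and DESeq2 called 66 and 58. Replicates also differed in spread between the states. Their chi-square per degree of freedom, a measure of spread relative to counting error, was 1.059 in S38D and 1.176 in WT mitotic libraries. It was 1.886 in S38D and 1.737 in WT asynchronous libraries. The main fit estimates spread over all 6 groups together, and the part of this gap in the counts was not tested. Mean coding reads were 485542 in S38D and 280581 in WT asynchronous libraries, beside 286134 and 346673 in mitotic ones. The counts therefore do not rank the states. Of the 47 genes higher in mitotic S38D cells, 46 had a positive difference in asynchronous cells, as had 3518 of the 6692 genes tested, and 15 were called higher there, with a median log2 difference of 0.47. Of the 75 lower genes, 61 had a negative difference and 33 were called lower, with a median of -0.58. None of the 122 was called in the opposite direction. Median differences of both sets were thus smaller in asynchronous cells than in the mitotic libraries in which the sets had been chosen.

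**Figure D3:**
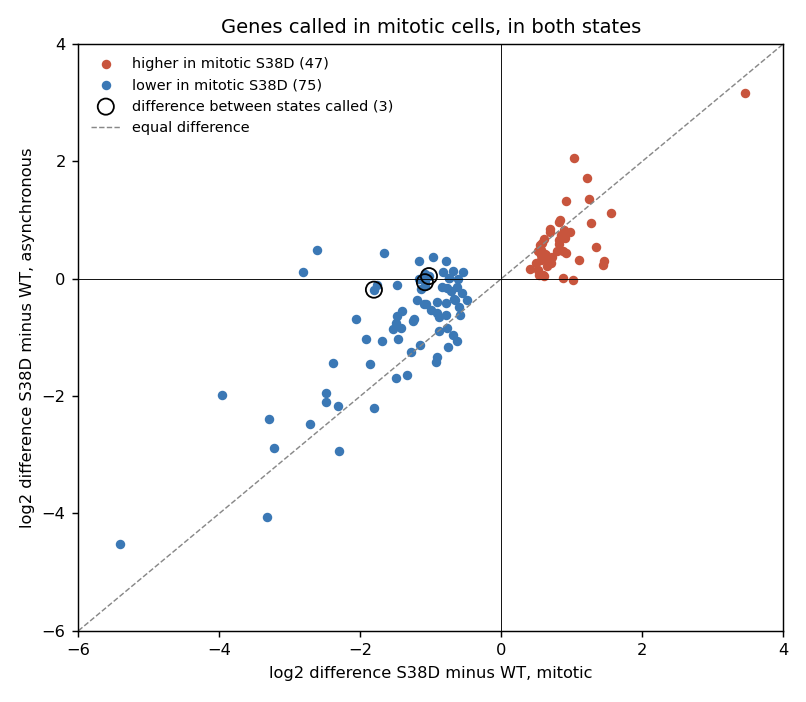
Log2 difference S38D minus WT in asynchronous cells (vertical axis) against that in mitotic cells (horizontal axis) for the 122 genes called in mitotic cells; the dashed line marks equal differences. Most points share their sign between states, and 3 ringed genes have a called difference between states, with asynchronous values near 0.

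The difference between states was tested itself, as S38D minus WT in mitotic cells minus the same in asynchronous cells. It passed for 4 genes (0.0598% of those tested), all lower, and for 0 higher genes (edgeR quasi-likelihood test). At unadjusted p under 0.05 there were 260 lower and 179 higher, and DESeq2 called 2 lower and 0 higher. With DESeq2 size factors in edgeR the split was 3 lower and 1 higher. Without WT asynchronous replicate 2, WT mitotic replicate 2, S38D mitotic replicate 1 or S38D mitotic replicate 2 a single gene was called in each fit. Without WT asynchronous replicate 1 there were 14, and without S38D asynchronous replicate 1 there were 7.

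ENSMUSG00000031004.8 had the largest difference between states among the 4 called genes. WT libraries had 328 and 428 CPM in asynchronous and 577 and 591 CPM in mitotic cells. S38D libraries went the other way, from 1018 and 820 CPM to 389 and 463 CPM. S38D was therefore higher than WT in asynchronous cells (log2 difference 1.27 ± 0.16, SE, adjusted p = 4.38e-08, edgeR), while in mitotic cells the difference of -0.45 ± 0.17 did not pass (adjusted p = 0.21, edgeR). The log2 difference between states was -1.72 ± 0.24 (SE, adjusted p = 2.62e-06, edgeR). S38A libraries were the highest in both states, at 3373 and 2184 CPM in asynchronous and 978 and 1001 CPM in mitotic cells, and asynchronous S38A replicates differed widely.

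The other 3 genes had fewer footprints in mitotic S38D cells and about equal levels in asynchronous cells. For ENSMUSG00000006517.5, mitotic libraries had 298 and 316 CPM in WT, 95.4 and 80.7 CPM in S38D, with S38A nearer to S38D at 121 and 127 CPM. Asynchronous libraries had 227 and 182 CPM in WT, 207 and 148 CPM in S38D, with S38A at 222 and 204 CPM. The groups of S38D and WT overlapped in asynchronous and not in mitotic cells. Its log2 difference was -1.81 ± 0.23 in mitotic cells (SE, adjusted p = 1.43e-07, edgeR) and -0.19 ± 0.21 in asynchronous cells (SE, adjusted p = 0.75, edgeR), with -1.62 ± 0.32 between states (SE, adjusted p = 0.0055, edgeR). That last call was lost in 5 of the 8 fits that left out a library, without WT asynchronous replicate 2, S38D asynchronous replicate 1, WT mitotic replicate 2 or either S38D mitotic replicate, with log2 differences from -1.73 to -1.36 and adjusted p from 0.071 to 0.42 (edgeR). DESeq2 did not call it either (log2 difference -1.55, adjusted p = 0.35).

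The remaining pair were abundant genes of the same pattern. Between states the log2 difference was -1.07 ± 0.20 in the former (SE, adjusted p = 0.0023, edgeR). In the latter it was -1.02 ± 0.22 (SE, adjusted p = 0.020, edgeR). Neither call held in every fit that left out a library, and DESeq2 did not call both. The former had 1164 and 1340 CPM in WT and 607 and 624 CPM in S38D mitotic libraries, a log2 difference of -1.03 ± 0.14 (SE, adjusted p = 5.15e-07, edgeR), against 0.04 ± 0.14 in asynchronous cells. The latter had 580 and 624 CPM in WT and 252 and 316 CPM in S38D mitotic libraries, a log2 difference of -1.08 ± 0.17 (SE, adjusted p = 5.48e-06, edgeR), against -0.06 ± 0.14 in asynchronous cells. S38A mitotic libraries lay below WT in both, at 747 and 652 CPM in the former and at 516 and 450 CPM in the latter. S38D and S38A differed in the latter (adjusted p = 0.000652) and not past the threshold in the former (adjusted p = 0.46, edgeR).

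Levels of the 122 genes in S38A were set beside those of S38D and WT in mitotic cells. S38A libraries entered the filter, the scaling and the estimate of spread, but not the contrast that chose the genes. The mean log2 CPM of the 75 lower genes was 7.97 and 7.96 in the WT mitotic libraries, 7.08 and 7.03 in S38A and 6.72 and 6.68 in S38D. For the 47 higher genes it was 8.02 and 8.13 in WT, 8.42 and 8.44 in S38A and 8.88 and 8.96 in S38D. S38A lay between WT and S38D for both sets. Because the genes were chosen for their gap between WT and S38D in these libraries, a middle place of another group is favoured by the choice, and this order is a description with no test. Gene by gene, the mean S38A level fell between those of WT and S38D for 43 of the 75 lower and 24 of the 47 higher genes, and for 1726 of the 6692 genes tested.

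In asynchronous libraries, which likewise entered the fit but not the contrast, the lower genes had 8.02 and 8.06 mean log2 CPM in WT, 7.43 and 7.40 in S38A and 7.37 and 7.30 in S38D. Both mutants were below WT there by similar amounts. The higher genes had 7.82 and 7.69 in WT, 8.08 and 8.18 in S38A and 8.38 and 8.33 in S38D asynchronous libraries.

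**Figure D4:**
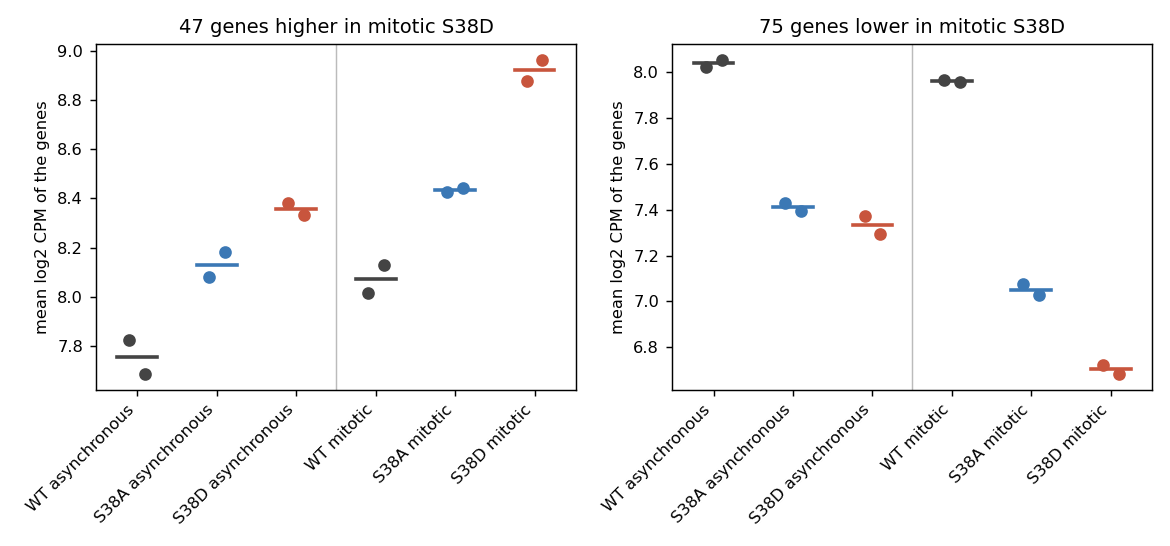
Mean log2 CPM (vertical axes) of the 47 genes higher (left) and the 75 genes lower (right) in mitotic S38D cells, in each of the 12 libraries by group; points are libraries and bars are means of 2. S38A lies between WT and S38D in mitotic cells in both panels, and the WT and S38D mitotic values chose the genes.

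A direct test of the 2 substitutions in mitotic cells, S38D minus S38A, called 864 genes (12.9%), 411 higher (6.14%) and 453 lower (6.77%) in S38D. It shares the S38D libraries with the comparison of S38D with WT. Genes chosen there are therefore favoured to differ in the same direction here, and the overlaps are a description with no test. Of the 47 genes higher than in WT, 28 were also higher than in S38A and 6 were lower than in S38A. Of the 75 genes lower than in WT, 21 were also lower than in S38A and 7 were higher. Leaving out a single library reduced this count to 455 without S38A mitotic replicate 1, 487 without S38A mitotic replicate 2, 461 without S38D mitotic replicate 1 and 371 without S38D mitotic replicate 2.

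Cell cycle genes, taken by Ensembl ID from the marker pairs shipped with the scran package, were compared between mitotic S38D and WT cells. Of 67 genes that mark G2 and M phase, 1 was higher, 1 was lower and 65 did not pass, with a median log2 difference of 0.05. The lower call was lost with DESeq2 size factors, with DESeq2 and with a mean CPM of at least 10. DESeq2 without its filter did not make the higher call either. Of 81 G1 genes, 1 was higher and 1 lower, with a median of 0.08, and DESeq2 did not make the higher call. Both lists also lost calls on leaving out a library. Of 74 S phase genes, 0 were called by edgeR in the 12-library fit or by DESeq2, with a median of 0.02, and at unadjusted p under 0.05 3 were higher and 5 lower (edgeR). In the fit of the 6 mitotic libraries and in that without WT mitotic replicate 1, 1 was called lower. These shares lie near the 1.82% called among all genes tested and are no result about these lists. The S phase median was -0.03 with library totals. Against S38A, 18 of the 74 S phase genes were lower in mitotic S38D cells and 2 higher, with a median of -0.42. The G2 and M list had 11 lower and 3 higher of 67, and the G1 list 5 lower and 6 higher of 81, beside 6.77% lower and 6.14% higher among all genes tested.

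Pair scores give the percent of these pairs in which the gene marking a phase has more footprints than its partner. The G2M score was 50.2 and 49.6% in S38D and 49.98 and 49.94% in WT mitotic libraries, so the groups overlapped. The G1 score was 46.0 and 46.8% in S38D and 44.9 and 45.6% in WT, and the S score was 41.3% in both S38D libraries against 42.6 and 42.7% in WT. The G1 and S groups did not overlap. With 2 libraries against 2, an exact two-sided permutation test cannot give a p under 0.333, and no other test of these gaps was made. G2M scores of the labelled mitotic libraries were below those of the asynchronous ones, at 54.3 and 55.4% in WT and 56.1 and 55.1% in S38D. G1 scores were above the asynchronous ones, at 38.5 and 38.1% in WT and 37.2 and 38.5% in S38D. Neither score thus marks the mitotic label in these footprints, and the share of cells in mitosis was not tested.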

How the data were processed

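Ribosome footprints of 27 to 30 nt were cloned and sequenced, per the labels' protocols. The authors deposited raw read counts per Ensembl gene ID, 1 table per library. Tools in the submitters' processing notes, given without roles, are the aligners STAR 2.5.3a and Bowtie2 2.3.2, the counter HTSeq 0.9.1, DESeq2 1.18.1 and bcl2fastq 2.16.0.10, with mm10 as the build. Neither strand use nor the handling of identical reads is given in the sources used here. Counts of overlapping genes and of near-identical paralogs are therefore uncertain. Library sizes leave out the 5 summary rows. In the 4 libraries compared, 72.4 to 73.0% of alignments were listed as not unique.

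The main test was the quasi-likelihood F test of edgeR 4.0.16 under R 4.3.3 (TMM scaling, filterByExpr with a minimum count of 10, 6 groups of genotype and state in 1 model of 12 libraries, common biological coefficient of variation 0.0868), with Benjamini-Hochberg adjustment over the 6692 genes tested. Each SE was obtained by dividing the absolute log2 difference by the root of F. CPM follow TMM scaling; log2 CPM used a prior count of 2. Ratios against 1 to 3 reads use all coding reads of a group. Well-covered genes had a mean of at least 50 CPM. Phase lists hold genes that come first on balance in the pairs of 1 phase (scran 1.30.0) and second in those of the others.

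The named IDs are the 2 with the largest log2 difference in each direction among called genes with non-overlapping groups and a mean of 10 CPM or more; for the difference between states the 2 largest are named, chosen after their values were seen. The rule had asked for 15 per direction by symbol; these could not be named, and lists fixed by symbol and cell type markers could not be applied. Members and lists were chosen with earlier results of these data known. Alternatives were other scaling, filters, fits and tools, and leaving out libraries (DESeq2 1.42.0). DESeq2 without its independent filter on low means was added after seeing the data.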

Additional observations from a re-analysis of the deposited data

Results flagged for a closer look

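The difference between S38D and WT cells was not the same in mitotic and asynchronous cells for 4 genes, by the test of that difference itself (edgeR quasi-likelihood test). For ENSMUSG00000031004.8 the log2 difference between states was -1.72 (SE 0.24, adjusted p = 2.62e-06, edgeR). For ENSMUSG00000006517.5 it was -1.62 (SE 0.32, adjusted p = 0.0055, edgeR). The range of adjusted p on leaving out a library was 2.75e-09 to 0.000597 for the former and 0.000369 to 0.42 for the latter. DESeq2 gave -1.66 (adjusted p = 0.00020) for the former and -1.55 (adjusted p = 0.35) for the latter, which it did not call. Groups of 2 libraries are too small for a check of single outlying libraries.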

How the results depend on the processing

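The count of 122 genes for S38D against WT in mitotic cells became 58 with DESeq2, 228 with these 4 libraries alone in the fit and 215 with the 6 mitotic libraries, and ranged from 39 to 60 on leaving out a library. Of the 122 genes, 18 (6 higher, 12 lower) were called under 13 alternatives and 48 under the 9 that kept every library of the comparison; of those not called, 48 had no adjusted p in DESeq2. Without its independent filter, an alternative chosen after seeing the data, DESeq2 called 48 genes in mitotic cells, 47 in asynchronous cells, 2 between states and 304 between the mutants. Each of the 122 genes that an alternative could test kept its sign there. The asynchronous count of 223 became 66 with DESeq2 and 70 with the libraries compared alone, and 104 to 221 on leaving out a library. The 4 genes that differed between states became 2 with DESeq2, 7 without a filter and 1 to 14 on leaving out a library. S38D against S38A in mitotic cells gave 361 genes with DESeq2 and 371 to 487 on leaving out a library. A lone library left in a group was assumed to vary like the other groups. The causes were not tested. Other scalings and filters kept each count within 1.5 times, except that without a filter for the difference between states; a mean CPM of at least 10 turned the mitotic split to 66 higher and 58 lower.

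Deviations of same-numbered libraries correlated at -0.23 to 0.09 over the 15 pairs of groups, and at -0.02 between S38D and WT mitotic cells. Same-numbered libraries thus showed no strong positive pairing. The lowest value was that between asynchronous S38D and WT, and pairing of libraries across different numbers was not tested. With the replicate number as a block, 111 genes were called in mitotic cells, 206 in asynchronous cells, 4 between states and 821 between the mutants.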
